A study of Rattus norvegicus with 9 samples.

Results

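T cells were followed in rat tibia through 10 genes that build, start or carry out the T cell response, taken by symbol from the 22589 genes listed for each library. They are the CD3 chains Cd3d, Cd3e and Cd3g, the coreceptors Cd4, Cd8a and Cd8b, the kinases Lck and Zap70, and the killing proteins Prf1 and Gzmb. The left tibias of 9 female Sprague-Dawley rats were sequenced, with 3 rats in each group. The rats were 9 weeks old on arrival. The RE/Ovx rats had both ovaries removed and climbed a ladder with weights on the tail. Their 2 weeks of adaptive training started 10 weeks after the operation, per the study. The 12 weeks of formal training began in week 13 after the operation and reached a load of 100% of body weight. The NE/Ovx rats had both ovaries removed and did not train, and the Sham rats lost only a piece of fat near the ovary. Per the study's methods, skin, muscles, ligaments and tendons were cleaned off the bone, though muscle RNA was still read in every library. Rats are named by the numbers in their titles, and the number 8 occurs in each group without any statement that those animals were related. The value columns themselves carry the group and a running number from 1 to 3 instead, so the link of a value to a rat rests on the sample under which its table was deposited, while the group is the same by both.

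A T cell recognizes a peptide held by an MHC molecule through its antigen receptor, whose signal leaves the membrane through the CD3 chains. CD4 or CD8 binds the MHC molecule and brings LCK to the complex, LCK phosphorylates the CD3 tails, and ZAP-70 docks there and passes the signal on. Cytotoxic cells then release perforin, which opens the target membrane, and granzymes, which enter and start cell death. In bone, T cells are known as a source of cytokines that act on osteoclasts, and the marrow also holds memory T cells.

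The summed counts were between 12967456 and 14946389 per rat in the RE/Ovx group, 13568808 and 16671533 in the NE/Ovx group, and 12297992 and 15123988 in the Sham group. Of all listed genes, 14520 passed the filter on low counts, and the test below is edgeR's quasi-likelihood test in 1 fit of all 9 rats, with p-values adjusted by Benjamini and Hochberg over those genes and 0.05 as the threshold. Of the 10 T cell genes, 9 passed that filter, and Gzmb did not. The labelled tissue was checked with 10 markers of bone, all of which were tested and whose summed level was 16959, 27022 and 20283 CPM in RE/Ovx rats 3, 5 and 8, 15473, 25398 and 21585 CPM in NE/Ovx rats 6, 8 and 9, and 6560, 8967 and 5959 CPM in Sham rats 7, 8 and 12. All Sham rats were below all other rats in this sum. Against Sham, 2 of the 10 (Col1a1 and Bglap) passed as higher and 0 as lower in edgeR, in RE/Ovx and in NE/Ovx rats. Over all genes 5% and 1.03% passed as higher. In NE/Ovx rats both calls were lost without NE/Ovx rat 8, NE/Ovx rat 9, Sham rat 7 or Sham rat 12. The part of bone RNA in the T cell results was not tested. The 12 markers of skeletal muscle, all tested, summed to 7402, 9949 and 6636 CPM in the RE/Ovx rats, 17701, 14033 and 14154 CPM in the NE/Ovx rats and 11897, 5280 and 16052 CPM in the Sham rats, in the same order of rats. All 12 were lower in RE/Ovx than in NE/Ovx rats without overlap, against 6.84% of all genes, with a median log2 fold change of -1.04. In that comparison 0 of 12 passed in edgeR and in DESeq2, and 10 had an unadjusted p under 0.05. Against Sham 0 of 12 passed in RE/Ovx rats (7 at an unadjusted p under 0.05), but 10 fell without Sham rat 8, and in NE/Ovx rats 0 passed with 0 at an unadjusted p under 0.05. The part of muscle RNA in the T cell results was not tested. Thymus and lymph node were checked for as other sources of T cell RNA with 7 markers of thymic epithelium and lymph node stroma, which summed to 1.75, 3.59 and 1.99 CPM in the RE/Ovx rats, 5.21, 6.64 and 6.24 CPM in the NE/Ovx rats and 5.43, 1.53 and 4.67 CPM in the Sham rats. Foxn1, the transcription factor of thymic epithelium, and Glycam1, a product of lymph node venules, had a count of 0 in all 9 rats, which allows up to 0.182 to 0.2499 CPM per rat (3 counts). Psmb11 and Ccl19 did not exceed 0.121 and 0.294 CPM, and Aire did not exceed 0.346 CPM. Most of the sum came from the chemokines Ccl21, at 0.484 to 4.15 CPM, and Cxcl13, at 0.806 to 2.497 CPM, the 2 of the 7 that were tested, and both were lower in all RE/Ovx rats than in any NE/Ovx rat. The part of such tissue in the T cell levels was not tested. NE/Ovx rat 6 stood apart in 13 interferon response genes, with a summed level of 2922 CPM against 891 to 1827 CPM in the other 8 rats. A library of whole bone cannot separate fewer cells of a type from less RNA per cell.

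Promoter windows of the T cell genes were taken from RefSeq (build GRCr8), from 250 bases before the start of a gene to 50 bases after it. They matched 8 of the 10 genes in 9 windows, 2 of them for Lck, and Cd4 and Cd8b had no entry. The motifs searched on both strands were AGGAAG (ETS core), TGTGGT (RUNX core) and CTTTGA (TCF/LEF core), which share no overlapping position with each other in the windows shown and are known from binding sites of lymphocyte transcription factors. AGGAAG was found in 8 of the 9 windows, against 34.5% of 33469 rat windows of this length. TGTGGT was found in 3 of the 9, against 17.3%, and CTTTGA in 2 of the 9, against 16.1%. These shares describe letters, not bound sites. Both Lck windows are shown because Lck is the gene on which the group comparisons turn, and those of Cd3g and Cd3d because the genes are neighbours read in opposite directions. Capitals mark the motif matches, and each line reads 5′ to 3′ along the strand of its gene.
Lck, chr5:147201218-147201517, minus strand: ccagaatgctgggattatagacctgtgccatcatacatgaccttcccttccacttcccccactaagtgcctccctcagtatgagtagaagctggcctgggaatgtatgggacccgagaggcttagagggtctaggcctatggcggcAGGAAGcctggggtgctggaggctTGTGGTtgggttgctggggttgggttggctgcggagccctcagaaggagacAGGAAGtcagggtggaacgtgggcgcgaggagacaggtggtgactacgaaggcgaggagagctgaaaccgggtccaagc
Lck, chr5:147183601-147183900, minus strand: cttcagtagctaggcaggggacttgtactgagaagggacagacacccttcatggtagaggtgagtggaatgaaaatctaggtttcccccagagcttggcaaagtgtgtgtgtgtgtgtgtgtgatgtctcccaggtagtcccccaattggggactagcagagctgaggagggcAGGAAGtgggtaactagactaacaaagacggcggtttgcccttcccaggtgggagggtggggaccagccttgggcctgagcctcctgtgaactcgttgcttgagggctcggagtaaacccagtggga
Cd3g, chr8:54183869-54184168, minus strand: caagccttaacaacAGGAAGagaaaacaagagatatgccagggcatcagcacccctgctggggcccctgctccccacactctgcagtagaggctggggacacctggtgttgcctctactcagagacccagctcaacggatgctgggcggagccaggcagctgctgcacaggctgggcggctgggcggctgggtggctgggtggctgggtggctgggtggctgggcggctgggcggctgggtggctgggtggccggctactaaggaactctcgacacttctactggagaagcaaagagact
Cd3d, chr8:54185269-54185568, plus strand: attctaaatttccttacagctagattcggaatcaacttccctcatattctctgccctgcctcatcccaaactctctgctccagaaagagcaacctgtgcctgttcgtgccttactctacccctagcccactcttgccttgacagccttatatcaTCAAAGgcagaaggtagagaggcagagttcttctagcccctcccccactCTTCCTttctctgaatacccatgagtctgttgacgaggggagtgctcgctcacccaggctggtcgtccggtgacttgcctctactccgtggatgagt
The more upstream Lck window, the one listed first, held 2 matches of AGGAAG and 1 of TGTGGT, and the other held 1 match of AGGAAG. The Cd3g window held 1 match of AGGAAG, and the Cd3d window held 1 of AGGAAG and 1 of CTTTGA.

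Levels of different genes were compared as FPKM, which is per length, over all 9 rats. Cd4 was the highest of the 10 with a mean of 16.01 FPKM, followed by Lck with 5.27, Cd3g with 4.29, Cd8a with 2.08, Cd3d with 1.76, Cd3e with 1.32, Cd8b with 1.05, Zap70 with 0.807, Prf1 with 0.803 and Gzmb with 0.270 FPKM. The step between Cd4 and Lck was the only one between neighbours in this order whose ranges over the 9 rats lay apart, with a lowest Cd4 value of 10.9 FPKM and a highest Lck value of 8.38 FPKM. All 8 other neighbouring pairs overlapped, and Zap70 exceeded Prf1 in 4 of 9 rats. Genes further apart in the order did separate, and the lowest Cd3g value, 1.65 FPKM, lay above the highest of Zap70 (1.18), Prf1 (1.26) and Gzmb (0.983 FPKM). The T cell genes other than Cd4 and Lck rested on few reads. The 3 CD3 genes together had 97, 149 and 81 counts in RE/Ovx rats 3, 5 and 8, 100, 104 and 108 counts in NE/Ovx rats 6, 8 and 9, and 121, 72 and 52 counts in Sham rats 7, 8 and 12.

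**Figure D1:**
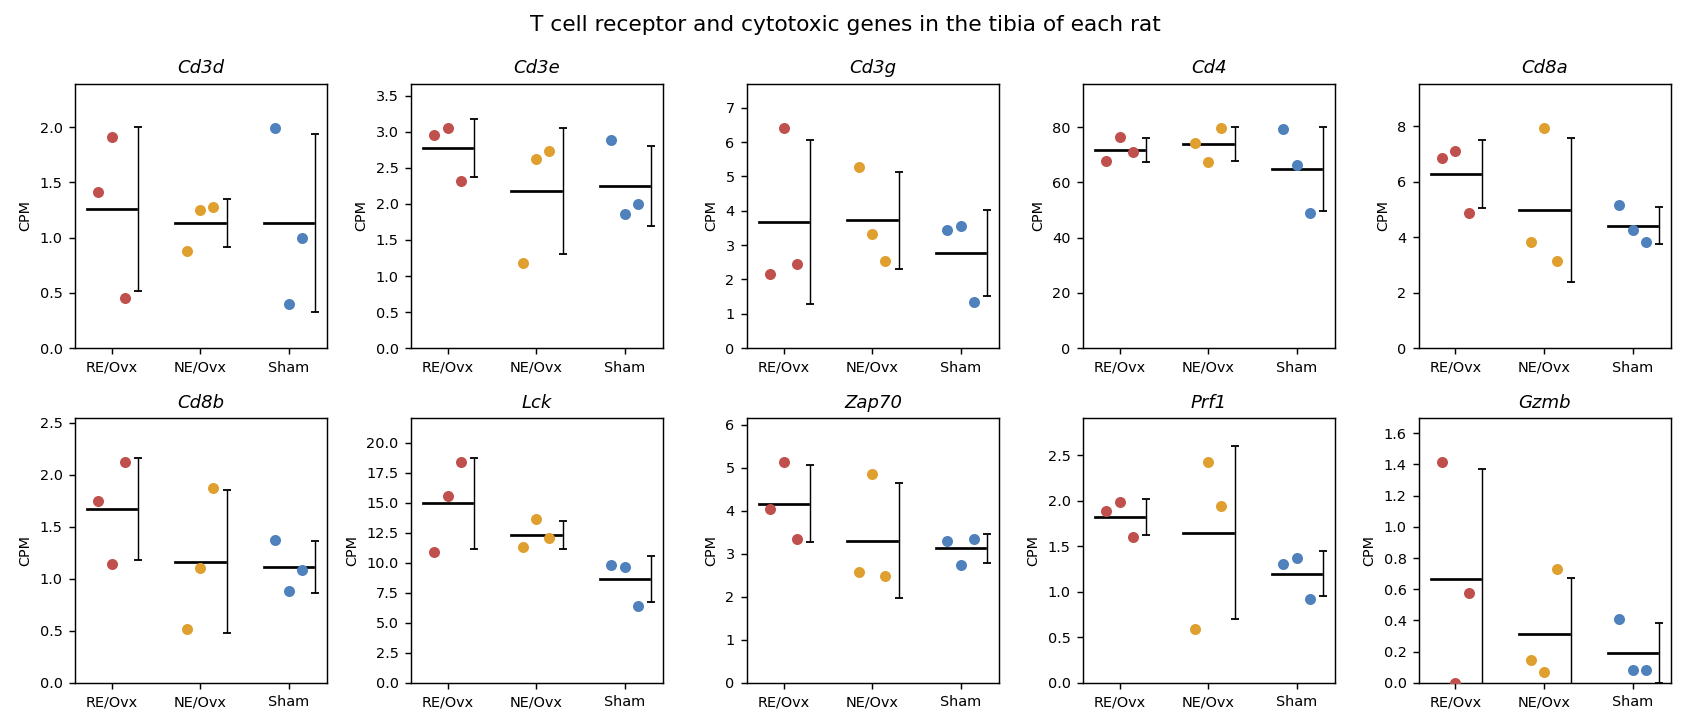
Level of each of the 10 T cell genes in CPM (counts scaled to library size, linear axis from 0) in every rat. Points are rats, the long bar is the mean and the thin bar the SD of 3 rats; Lck lies at 10.9 to 18.4 CPM in RE/Ovx rats and 11.3 to 13.6 CPM in NE/Ovx rats, above 6.42 to 9.83 CPM in Sham rats, while the CD3 genes overlap between all groups.

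The CD3 chains showed no difference between the groups that passed the test. Values between rats are given as CPM, which are counts scaled to the library size after TMM normalization, and a positive log2 fold change means a higher level in the group named first. Cd3d, the delta chain, had 1.41, 1.91 and 0.450 CPM in RE/Ovx rats 3, 5 and 8, 0.881, 1.25 and 1.27 CPM in NE/Ovx rats 6, 8 and 9, and 1.99, 0.403 and 0.9998 CPM in Sham rats 7, 8 and 12. Its highest and its lowest value were both in the Sham group. On the log2 scale, the fold change of Cd3d was -0.02 ± 0.61 (SE) between NE/Ovx and Sham rats, 0.13 ± 0.60 between RE/Ovx and NE/Ovx rats and 0.11 ± 0.61 between RE/Ovx and Sham rats. Its counts ran from 5 to 29 per rat, and its direction between RE/Ovx and Sham rats turned without RE/Ovx rat 5 (log2 fold change -0.31) or Sham rat 8 (-0.27).

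Cd3e, the epsilon chain, whose antibodies are the common stain for T cells, had 2.96, 3.06 and 2.31 CPM in RE/Ovx rats 3, 5 and 8, 1.17, 2.63 and 2.73 CPM in NE/Ovx rats 6, 8 and 9, and 2.89, 1.85 and 2 CPM in Sham rats 7, 8 and 12. NE/Ovx rat 6 was the lowest of the 9, and the groups overlapped. For Cd3e the log2 fold change was 0.34 ± 0.35 between RE/Ovx and NE/Ovx rats and 0.30 ± 0.35 between RE/Ovx and Sham rats, and -0.04 ± 0.36 between NE/Ovx and Sham rats, where it was 0.25 without NE/Ovx rat 6.

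Cd3g, the gamma chain, had 2.15, 6.42 and 2.44 CPM in RE/Ovx rats 3, 5 and 8, 5.29, 3.32 and 2.55 CPM in NE/Ovx rats 6, 8 and 9, and 3.44, 3.55 and 1.33 CPM in Sham rats 7, 8 and 12. RE/Ovx rat 5 and NE/Ovx rat 6 were the highest, and NE/Ovx rat 6 was the one lowest for Cd3e. Log2 fold changes of Cd3g were 0.41 ± 0.51 between NE/Ovx and Sham rats, -0.02 ± 0.50 between RE/Ovx and NE/Ovx rats and 0.39 ± 0.51 between RE/Ovx and Sham rats. Without RE/Ovx rat 5 the last of these was -0.28. Summed over the 3 genes, CD3 was at 6.53, 11.4 and 5.20 CPM in the RE/Ovx rats, 7.34, 7.19 and 6.55 CPM in the NE/Ovx rats and 8.32, 5.80 and 4.33 CPM in the Sham rats, in the same order of rats. The span within the RE/Ovx group enclosed all 3 NE/Ovx rats.

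Cd4, the coreceptor for MHC class II, was the most abundant of the 10. It had 67.8, 76.3 and 71.1 CPM in RE/Ovx rats 3, 5 and 8, 74.2, 67.4 and 79.8 CPM in NE/Ovx rats 6, 8 and 9, and 79.3, 66.3 and 48.7 CPM in Sham rats 7, 8 and 12. Sham rat 12 was low and the other 8 rats lay close together. The log2 fold change of Cd4 was -0.04 (95% interval -0.38 to 0.30) between RE/Ovx and NE/Ovx rats, 0.19 (-0.16 to 0.53) between NE/Ovx and Sham rats and 0.14 (-0.20 to 0.49) between RE/Ovx and Sham rats, and the last was -0.03 without Sham rat 12. In rats, CD4 is also carried by monocytes and macrophages. The summed level of 13 macrophage markers was 690, 653 and 583 CPM in the RE/Ovx rats, 712, 627 and 694 CPM in the NE/Ovx rats and 831, 606 and 506 CPM in the Sham rats, with Sham rat 7 highest and Sham rat 12 lowest, and its part in the Cd4 level was not tested. Per length, Cd4 was 9.52, 10.4 and 12.8 times the level of Cd3e in RE/Ovx rats 3, 5 and 8, 26.3, 10.7 and 12.2 times in NE/Ovx rats 6, 8 and 9, and 11.4, 14.9 and 10.1 times in Sham rats 7, 8 and 12.

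Cd8a and Cd8b encode the alpha and beta chains of the coreceptor for MHC class I. Cd8a had 6.86, 7.11 and 4.88 CPM in RE/Ovx rats 3, 5 and 8, 3.82, 7.96 and 3.15 CPM in NE/Ovx rats 6, 8 and 9, and 5.16, 4.27 and 3.83 CPM in Sham rats 7, 8 and 12. NE/Ovx rat 8 was the highest of all and the other NE/Ovx rats were the lowest of all. The log2 fold change of Cd8a was 0.34 ± 0.33 between RE/Ovx and NE/Ovx rats, 0.50 ± 0.34 between RE/Ovx and Sham rats and 0.16 ± 0.34 between NE/Ovx and Sham rats. Without NE/Ovx rat 8 these were 0.85 between RE/Ovx and NE/Ovx rats (unadjusted p = 0.0108 by edgeR, which did not pass once adjusted) and -0.35 between NE/Ovx and Sham rats.

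Cd8b had 1.75, 1.15 and 2.12 CPM in RE/Ovx rats 3, 5 and 8, 0.514, 1.11 and 1.88 CPM in NE/Ovx rats 6, 8 and 9, and 1.38, 0.887 and 1.08 CPM in Sham rats 7, 8 and 12. The groups overlapped, and the rats with the most Cd8a were not those with the most Cd8b. Log2 fold changes of Cd8b were 0.50 ± 0.46 between RE/Ovx and NE/Ovx rats, 0.58 ± 0.46 between RE/Ovx and Sham rats and 0.08 ± 0.48 between NE/Ovx and Sham rats. Within a rat, the ratio of Cd8b to Cd8a per length ran from 0.322 to 0.867 in the RE/Ovx group, 0.269 to 1.19 in the NE/Ovx group and 0.415 to 0.565 in the Sham group. The ratio of Cd8a to Cd4 ran from 0.120 to 0.176 in the RE/Ovx group, 0.0688 to 0.206 in the NE/Ovx group and 0.112 to 0.137 in the Sham group. In both ratios the NE/Ovx rats spread wider than the others and enclosed the Sham range. RefSeq places a long noncoding RNA gene over Cd8b and another over Lck, and the sources used here do not state if reads were assigned by strand.

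Lck, the kinase that starts the signal, was the 1 gene of the 10 whose levels in both groups of ovariectomized rats lay above every Sham rat. It had 10.9, 15.6 and 18.4 CPM in RE/Ovx rats 3, 5 and 8, 11.3, 13.6 and 12.1 CPM in NE/Ovx rats 6, 8 and 9, and 9.83, 9.67 and 6.42 CPM in Sham rats 7, 8 and 12. The RE/Ovx and NE/Ovx rats overlapped with each other, and Sham rat 12 was the lowest. Lck rested on 77 to 286 counts per rat, more than any other of the 10 except Cd4.

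Between RE/Ovx and Sham rats the log2 fold change of Lck was 0.79 ± 0.22 (SE, n = 3 rats each), with a 95% interval of 0.29 to 1.28, an unadjusted p of 0.00532 and an adjusted p of 0.0577 by edgeR, just short of the threshold. Over the alternatives its adjusted p ran from 0.0149 to 0.212. It passed with DESeq2 (adjusted p = 0.0149), with edgeR on library totals (adjusted p = 0.0480) and in edgeR without RE/Ovx rat 3 (adjusted p = 0.0179). Between NE/Ovx and Sham rats the log2 fold change was 0.51 ± 0.22 with an unadjusted p of 0.0453 and an adjusted p of 0.232 by edgeR, and 0.32 with an unadjusted p of 0.164 without Sham rat 12. Between RE/Ovx and NE/Ovx rats it was 0.28 ± 0.22 with an adjusted p of 0.968 by edgeR. The first and second of these comparisons share the Sham rats, so they are not independent of each other.

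B cell markers were lower in Sham rats, as Lck was. The summed level of 12 markers, all detected, was 943, 999 and 1158 CPM in RE/Ovx rats 3, 5 and 8, 1234, 879 and 763 CPM in NE/Ovx rats 6, 8 and 9, and 481, 662 and 237 CPM in Sham rats 7, 8 and 12. All Sham rats were below all other rats, and Sham rat 12 was the lowest for Lck and for these markers. Against Sham, 3 of the 12 (Blnk, Cd22 and Ebf1) rose in RE/Ovx rats in edgeR, beside 5% of all genes. In NE/Ovx rats 0 of 12 rose in edgeR, beside 1.03% of all genes (8 at an unadjusted p under 0.05, and 4 in DESeq2). The median log2 fold change of the list was 1.21 in RE/Ovx rats and 0.98 in NE/Ovx rats. The calls of all 3 were lost in edgeR without RE/Ovx rat 5, without RE/Ovx rat 8 and without Sham rat 7, where 0 of the 12 passed, and that of Ebf1 also without Sham rat 12. Without Sham rat 8, 7 of the 12 rose in RE/Ovx rats and 4 in NE/Ovx rats. Blnk, an adaptor of the B cell receptor, rose by a log2 fold change of 1.46 in RE/Ovx rats (adjusted p = 0.0237 by edgeR). The part of B cell RNA in the Lck level was not tested.

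**Figure D2:**
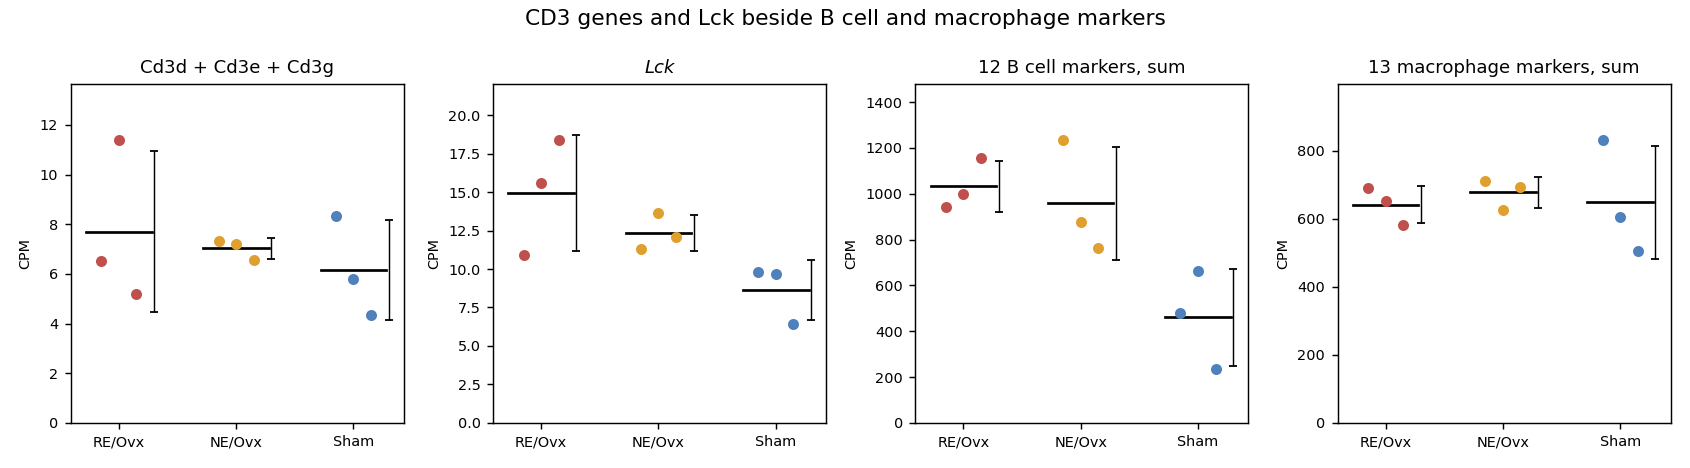
Summed level of the 3 CD3 genes, of Lck, of 12 B cell markers and of 13 macrophage markers in CPM in each rat (linear axes from 0). Points are rats, the long bar is the mean and the thin bar the SD of 3 rats; Lck and the B cell markers are lowest in Sham rat 12, at 6.42 and 237 CPM, while the CD3 sum of RE/Ovx rats spans 5.20 to 11.4 CPM.

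Zap70, the kinase that docks on phosphorylated CD3 chains, had 4.04, 5.12 and 3.34 CPM in RE/Ovx rats 3, 5 and 8, 2.57, 4.84 and 2.48 CPM in NE/Ovx rats 6, 8 and 9, and 3.30, 2.74 and 3.33 CPM in Sham rats 7, 8 and 12. The RE/Ovx rats lay above the Sham rats narrowly, with the nearest values in RE/Ovx rat 8 and Sham rat 12, and both groups overlapped with the NE/Ovx rats. Zap70 had log2 fold changes of 0.41 ± 0.31 between RE/Ovx and Sham rats, 0.33 ± 0.31 between RE/Ovx and NE/Ovx rats and 0.08 ± 0.31 between NE/Ovx and Sham rats. Zap70 followed Cd8a more closely than any other pair of the 9 tested genes did, with a Pearson r of 0.93 over the 9 rats. NE/Ovx rat 8 and RE/Ovx rat 5 were high for both. Over all 36 pairs of the 9 tested genes the median r was 0.31, and 31 pairs were positive. These correlations describe 9 libraries of 3 groups, which share each rat's depth and cell makeup.

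The cytotoxic pair was at the low end of what these libraries can measure, Prf1 with 8 to 35 counts per rat and Gzmb with 0 to 21. Cd3d, with 5 to 29, and Cd8b, with 7 to 33, had about as few counts as Prf1. Prf1, perforin, had 1.88, 1.99 and 1.61 CPM in RE/Ovx rats 3, 5 and 8, 0.587, 2.42 and 1.94 CPM in NE/Ovx rats 6, 8 and 9, and 1.31, 1.37 and 0.916 CPM in Sham rats 7, 8 and 12. The 3 RE/Ovx rats lay above the 3 Sham rats, whereas NE/Ovx rat 6 was below all others. The log2 fold change of Prf1 was 0.60 ± 0.46 between RE/Ovx and Sham rats, with an adjusted p of 0.460 by edgeR, 0.46 ± 0.46 between NE/Ovx and Sham rats and 0.14 ± 0.45 between RE/Ovx and NE/Ovx rats. Without NE/Ovx rat 6 the last 2 were 0.85, with an unadjusted p of 0.0355 and an adjusted p of 0.2796 by edgeR, and -0.26.

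Gzmb, granzyme B, had 21, 0 and 9 counts in RE/Ovx rats 3, 5 and 8, 2, 1 and 12 counts in NE/Ovx rats 6, 8 and 9, and 6, 1 and 1 counts in Sham rats 7, 8 and 12. That is 1.41, 0 and 0.578 CPM in the RE/Ovx rats, 0.147, 0.0692 and 0.727 CPM in the NE/Ovx rats and 0.413, 0.0806 and 0.0833 CPM in the Sham rats. The count of 0 in RE/Ovx rat 5 allows a level of up to 0.229 CPM (3 counts), and such limits cover counting error only. The highest and the lowest value were both in the RE/Ovx group, and the gene was left untested for low counts. Per length, Prf1 plus Gzmb stood at 0.3003, 0.0806 and 0.243 of the sum of the CD3 genes in RE/Ovx rats 3, 5 and 8, 0.0466, 0.172 and 0.226 in NE/Ovx rats 6, 8 and 9, and 0.107, 0.124 and 0.123 in Sham rats 7, 8 and 12. The Sham rats were close to each other, and the ovariectomized rats lay on both sides of them.

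For the question of what ovariectomy does to these genes without training, 0 of the 9 tested genes passed the adjusted threshold between NE/Ovx and Sham rats, in edgeR and in DESeq2, and 1 (Lck) had an unadjusted p under 0.05. Over all tested genes 1.03% passed as higher and 0.2% as lower. By the criteria of the study's own analysis (p under 0.05 before adjustment, and a fold above 1.2 or below 0.83), 1 of 9 was higher (Lck) and 0 were lower, against 11.3% higher and 6.52% lower of all genes. The NE/Ovx rats lay above the Sham rats without overlap for 1 of 9 (Lck) and below them for 0, against 13.9% and 11.4% of all genes. These shares are near the background. The median log2 fold change of the 9 genes was 0.16, beside 0.0029 over all genes, with 7 of 9 positive. Lck no longer met the study's criteria without NE/Ovx rat 6, NE/Ovx rat 8, NE/Ovx rat 9 or Sham rat 12, which left 0 genes there, or 1 (Prf1) without NE/Ovx rat 6. Without Sham rat 7 there were 2 (Lck and Cd4).

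For the question of what training adds in ovariectomized rats, 0 of 9 passed between RE/Ovx and NE/Ovx rats in edgeR and in DESeq2, and 0 had an unadjusted p under 0.05. Over all genes 0% passed as higher and 0% as lower. By the study's criteria 0 of 9 were called, against 1.54% higher and 3.15% lower of all genes, and the groups overlapped for all 9, against 4.75% of all genes without overlap higher and 6.84% lower. The median log2 fold change was 0.28, beside 0.01 over all genes, with 7 of 9 positive. By the study's criteria 2 genes (Cd8a and Zap70) were called without NE/Ovx rat 8, and 1 (Lck) without RE/Ovx rat 3.

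For RE/Ovx against Sham, where ovariectomy and training are combined and cannot be told apart, 0 of 9 passed in edgeR and 1 (Lck) in DESeq2, and 1 (Lck) had an unadjusted p under 0.05. Over all genes 5% were called higher and 3.06% lower in edgeR, which is 726 and 445 genes, against 891 and 289 when library totals replaced the TMM factors. By the study's criteria 1 of 9 was higher (Lck) and 0 lower, against 14% higher and 9.17% lower of all genes. The RE/Ovx rats lay above the Sham rats without overlap for 3 of 9 (Lck, Zap70 and Prf1) and below them for 0, against 14.9% and 13% of all genes. All 9 log2 fold changes were positive in this fit, from 0.11 for Cd3d to 0.79 for Lck, with a median of 0.41 beside -0.01 over all genes, and those of Cd3d, Cd3g and Cd4 turned when 1 rat was left out. This comparison shares the RE/Ovx rats with the one before it and the Sham rats with the first. The 95% intervals of the 8 genes other than Lck included 0 in all comparisons. They were narrowest for Cd4, from -0.38 at the lowest to 0.53 at the highest on the log2 scale, and reached as far as 1.63 for Prf1.

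**Figure D3:**
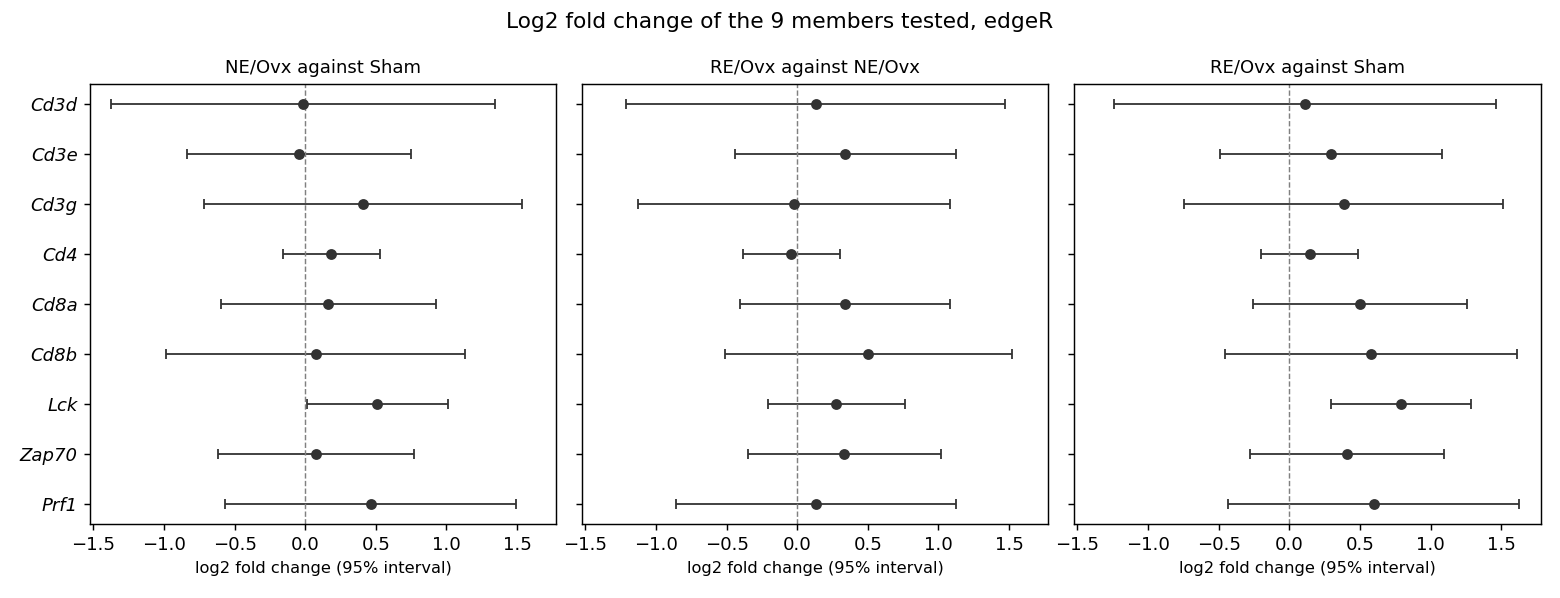
Log2 fold change of the 9 tested T cell genes with its 95% interval from edgeR, in a panel for each comparison. The interval of Lck lies above 0 between NE/Ovx and Sham rats (0.01 to 1.01) and between RE/Ovx and Sham rats (0.29 to 1.28), before adjustment over all genes, and the intervals of the other 8 genes include 0 in every panel.

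Other genes of T cells were listed by role. Of 29 further genes of receptor signalling, 27 were tested. Against Sham, 3 rose in RE/Ovx rats (Nfatc2, Rasgrp1 and Sit1) and 2 fell (Prkcq and Lcp2), beside 5% and 3.06% of all genes. In NE/Ovx rats 2 rose, Nfatc2 among them, and 0 fell, beside 1.03% and 0.2% of all genes. Nfatc2, a calcium-activated transcription factor, had 19.4, 25.2 and 19.1 CPM in RE/Ovx rats 3, 5 and 8, 21.0, 21.5 and 22.4 CPM in NE/Ovx rats 6, 8 and 9, and 12.5, 12.98 and 14.5 CPM in Sham rats 7, 8 and 12. Both groups of ovariectomized rats were above all Sham rats, with log2 fold changes of 0.67 ± 0.13 between RE/Ovx and Sham rats (adjusted p = 0.0205 by edgeR) and 0.70 ± 0.13 between NE/Ovx and Sham rats (adjusted p = 0.0402). Prkcq, the theta kinase that relays the receptor signal to NF-kappa B and is also made in muscle, had 43.1, 41.8 and 37.7 CPM in RE/Ovx rats 3, 5 and 8, 41.6, 41.5 and 39.7 CPM in NE/Ovx rats 6, 8 and 9, and 56.5, 50.3 and 57.8 CPM in Sham rats 7, 8 and 12. It fell by 0.42 on the log2 scale in RE/Ovx rats (adjusted p = 0.0248 by edgeR). Sit1, a receptor-associated adaptor that dampens signalling, had a log2 fold change of 1.12 in RE/Ovx rats (adjusted p = 0.0311 by edgeR). The median of the list was 0.18 between RE/Ovx and Sham rats, 0.16 between NE/Ovx and Sham rats and 0.01 between RE/Ovx and NE/Ovx rats, where 0 were called in edgeR and in DESeq2 (1 at an unadjusted p under 0.05).

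Of 30 further surface receptors 25 were tested. Against Sham, 1 rose (Btla) and 2 fell (Cd226 among them) in RE/Ovx rats, beside 5% and 3.06% of all genes. In NE/Ovx rats 0 rose and 1 fell (Cd226), beside 1.03% and 0.2% of all genes. Cd226, an activating receptor also found on platelets and their precursors, had 117, 88.6 and 96.6 CPM in RE/Ovx rats 3, 5 and 8, 86.5, 96.2 and 99.7 CPM in NE/Ovx rats 6, 8 and 9, and 163, 150 and 132 CPM in Sham rats 7, 8 and 12. It fell by 0.56 in RE/Ovx rats (adjusted p = 0.0251 by edgeR) and by 0.66 in NE/Ovx rats (adjusted p = 0.0359 by edgeR) on the log2 scale. Btla, an inhibitory receptor shared by T and B cells, had 32.9, 33.3 and 45.5 CPM in RE/Ovx rats 3, 5 and 8, 27.1, 24.4 and 25.0 CPM in NE/Ovx rats 6, 8 and 9, and 18.7, 23.0 and 7.75 CPM in Sham rats 7, 8 and 12. Its lowest rat was again Sham rat 12, and its log2 fold change between RE/Ovx and Sham rats was 1.17 (adjusted p = 0.0445 by edgeR).

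Of 16 transcription factors of T cells 15 were tested. In RE/Ovx rats 4 rose (Id3, Lef1, Satb1 and Bach2) and 0 fell against Sham, beside 5% and 3.06% of all genes. The median of the list was 0.66. In NE/Ovx rats 0 passed in edgeR (5 at an unadjusted p under 0.05, and 4 in DESeq2), with a median of 0.27. Lef1, which acts downstream of Wnt in T cell and B cell precursors, had 36.5, 33.8 and 44.3 CPM in RE/Ovx rats 3, 5 and 8, 45.1, 32.0 and 33.5 CPM in NE/Ovx rats 6, 8 and 9, and 12.2, 23.5 and 7.83 CPM in Sham rats 7, 8 and 12. Its log2 fold change between RE/Ovx and Sham rats was 1.39 (adjusted p = 0.0306 by edgeR). Id3, an inhibitor of E proteins, rose by 0.70 on the log2 scale (adjusted p = 0.0154 by edgeR). Bach2 and Lef1 are also genes of early B cells, and both were lowest in Sham rat 12, as the B cell markers were. Rag1, Rag2 and Dntt, which assemble antigen receptor genes in precursors of T and of B cells, were the tested genes of the list of receptor chains, and 0 of 3 passed in edgeR in any comparison (2 in DESeq2 for RE/Ovx against Sham, and 3 of 3 at an unadjusted p under 0.05 against Sham for RE/Ovx and for NE/Ovx). Rag1 had 129, 129 and 161 CPM in RE/Ovx rats 3, 5 and 8, 160, 125 and 108 CPM in NE/Ovx rats 6, 8 and 9, and 66.4, 82.7 and 16.2 CPM in Sham rats 7, 8 and 12. The constant chains of the receptor itself were not analysed here.

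Of 20 further genes of the cytotoxic machinery 16 were tested. In RE/Ovx rats 6 fell (Stxbp2, Rab27a, Srgn, Nkg7, Lyst and Hopx) and 0 rose against Sham, beside 3.06% and 5% of all genes. The median log2 fold change was -0.40, beside the 0.60 of Prf1, which did not pass. In NE/Ovx rats 0 passed in edgeR (6 at an unadjusted p under 0.05, and 1 lower in DESeq2), with a median of -0.23. Stxbp2, which helps granules fuse with the membrane, had 113, 94.6 and 105 CPM in RE/Ovx rats 3, 5 and 8, 125, 128 and 117 CPM in NE/Ovx rats 6, 8 and 9, and 136, 158 and 157 CPM in Sham rats 7, 8 and 12. It fell by 0.53 on the log2 scale in RE/Ovx rats (adjusted p = 0.0155 by edgeR). Rab27a, which docks granules, fell by 0.56 (adjusted p = 0.0170 by edgeR), and Srgn, the proteoglycan of granules, fell by 0.77 (adjusted p = 0.0275 by edgeR). Granule genes of this kind are also active in neutrophils, whose 13 markers summed to 5972, 4529 and 6816 CPM in RE/Ovx rats 3, 5 and 8, 6896, 6027 and 6958 CPM in NE/Ovx rats 6, 8 and 9, and 13312, 10033 and 7841 CPM in Sham rats 7, 8 and 12. Of the 12 neutrophil markers tested, 5 fell and 0 rose in RE/Ovx rats against Sham, beside 3.06% and 5% of all genes. The number that fell was 2 without RE/Ovx rat 5, RE/Ovx rat 8 or Sham rat 7, and 8 without Sham rat 12. All Sham rats were above all other rats in the sum of these markers. Their part in the fall of the granule genes was not tested.

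Natural killer cells share perforin and granzymes with T cells. Of 18 natural killer markers 13 were tested. Between RE/Ovx and Sham rats 1 fell (Tyrobp) and 0 rose, beside 3.06% and 5% of all genes, with a median of -0.07. Tyrobp is an adaptor that myeloid cells also use, and its call was lost without RE/Ovx rat 5 or RE/Ovx rat 8. The sum of the list was 151, 121 and 123 CPM in RE/Ovx rats 3, 5 and 8, 182, 142 and 132 CPM in NE/Ovx rats 6, 8 and 9, and 171, 172 and 149 CPM in Sham rats 7, 8 and 12. T cell cytokines were scarcely read. Of 17 only 4 (Tnfsf14, Ccl3, Ccl4 and Ccl5) were tested, 0 passed in any comparison in edgeR or DESeq2 (at most 1 at an unadjusted p under 0.05), and Ifng, the main cytokine of cytotoxic T cells, was at 0 to 0.153 CPM. Of 16 MHC and antigen presentation genes 14 were tested and 0 passed in any comparison in edgeR or DESeq2. For RE/Ovx against NE/Ovx, 3 of them (RT1-Db1, RT1-Ba and RT1-Da, chains of MHC class II) had an unadjusted p under 0.05. RT1-Db1 had 49.99, 49.1 and 74.0 CPM in RE/Ovx rats 3, 5 and 8, 28.6, 37.6 and 19.2 CPM in NE/Ovx rats 6, 8 and 9, and 45.1, 46.6 and 29.2 CPM in Sham rats 7, 8 and 12, with an adjusted p of 0.921 by edgeR between RE/Ovx and NE/Ovx rats. The RE/Ovx rats were above all NE/Ovx rats, but 0 genes of the whole table passed there in edgeR, with 767 at an unadjusted p under 0.05 and 5 in DESeq2.

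**Figure D4:**
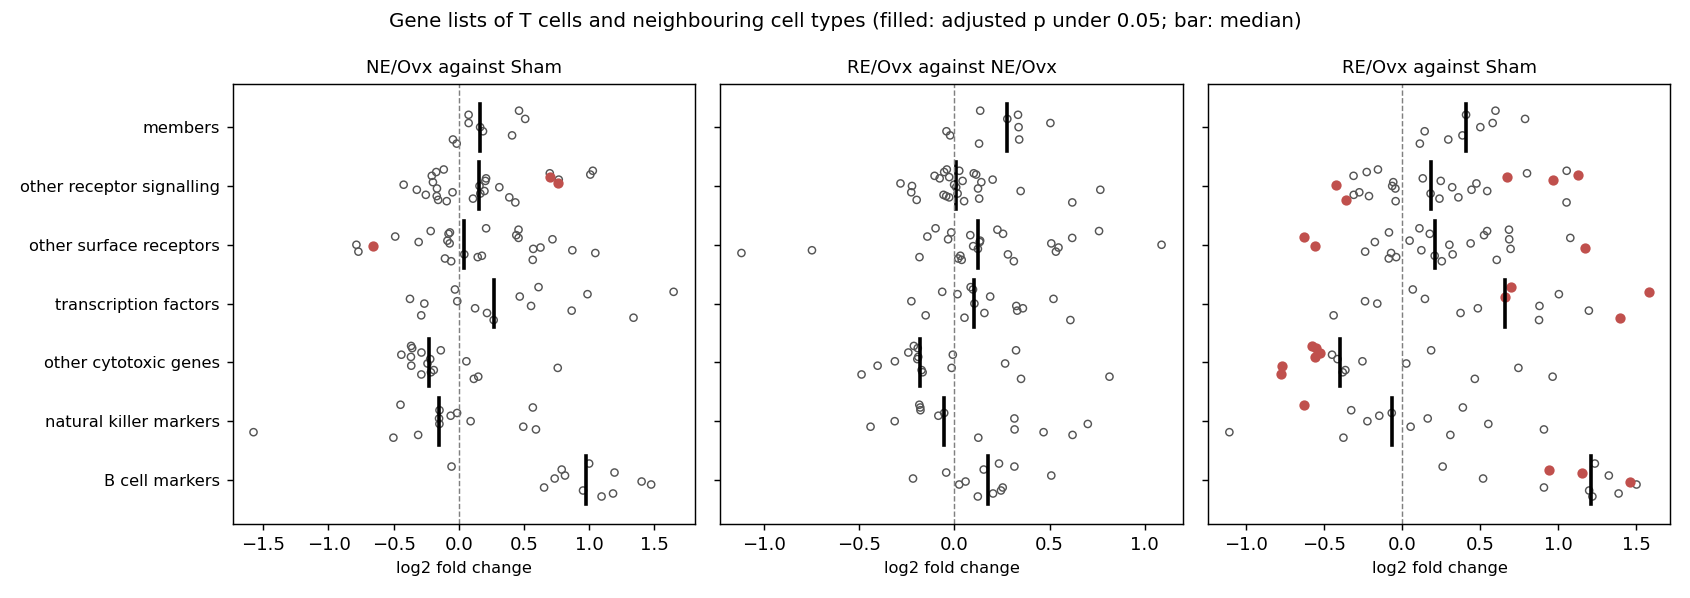
Log2 fold change of each tested gene of 7 lists, in a panel for each comparison, with filled points for an adjusted p under 0.05 in edgeR and a bar at the median of the list. Between RE/Ovx and Sham rats the 9 T cell genes have a median of 0.41 and no filled point, the other cytotoxic genes a median of -0.40 with 6 filled points, and the B cell markers a median of 1.21 with 3 filled points.

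Many of these list calls were lost when 1 rat was left out, and calls over all genes changed as well. For RE/Ovx against Sham, edgeR called 726 genes higher and 445 lower with all rats. It called 79 and 24 without RE/Ovx rat 5, 67 and 36 without RE/Ovx rat 8, and 1205 and 544 without RE/Ovx rat 3. Leaving out a Sham rat gave 320 to 498 higher and 281 to 349 lower. A loss particular to the lists was not tested. Without RE/Ovx rat 5, or without RE/Ovx rat 8, 0 genes of the 4 lists of receptor signalling, surface receptors, transcription factors and cytotoxic genes passed between RE/Ovx and Sham rats in edgeR. Without Sham rat 7 there were 3 that fell among the cytotoxic genes, 1 that rose among the transcription factors, 1 that rose in receptor signalling and 0 surface receptors. Without Sham rat 8 the cytotoxic genes that fell numbered 2, and the transcription factors that rose numbered 1 without Sham rat 12 and 2 without RE/Ovx rat 3. Without Sham rat 12, 2 genes of receptor signalling rose and 0 fell. For NE/Ovx against Sham the calls of Nfatc2 and Cd226 were lost whichever rat was left out, with adjusted p in edgeR of 0.0682 to 0.129 and 0.0535 to 0.118. Over all genes 149 were called higher and 29 lower there with all rats. With 1 rat left out, 7 to 160 were called higher and 2 to 21 lower.

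The genes whose pattern over the 9 rats was most like the CD3 level, the mean centred log2 CPM of Cd3d, Cd3e and Cd3g, were sought among 12975 genes with an average log2 CPM of at least 1. The CD3 level was highest in RE/Ovx rat 5 (0.73) and Sham rat 7 (0.43) and lowest in Sham rat 12 (-0.47) and RE/Ovx rat 8 (-0.45). Rnf128, an E3 ubiquitin ligase, had the highest Pearson r, at 0.91, and high values were also found for Rab42 (0.88), Parm1 (0.87), Immp2l (0.87), Sqstm1 (0.86), Stoml2 (0.86), Ubl4a (0.85), Bcat2 (0.84) and Pus3 (0.84). Of these 9 genes 0 were on any of the lists used here. For comparison, r was 0.51 for Cd2, 0.44 for Cd5, 0.55 for Tcf7 and 0.38 for Bcl11b, T cell genes chosen for this after their values were seen. The points share 9 libraries with 52 to 149 CD3 counts each, so these r values are a description.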

How the data were processed

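Total RNA of the left tibia of 9 rats was depleted of ribosomal RNA and made into libraries with a kit that keeps the strand. For each rat the authors deposited a whole-number count per gene and an FPKM value per gene. Dividing FPKM by count gave a value that differed between genes. From library to library this value changed by the same factor for all genes with counts, up to a relative spread of 1.5e-07. Per the labels, that is the submitters' processing notes, the build was Rnor_6.0 and the tools were HISAT2, StringTie, Bowtie2, Trimmomatic and DESeq, without versions, while strand use in counting was not stated in the sources used. Reads of overlapping genes may therefore be shared.

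Counts were tested in R 4.3.3 with edgeR 4.0.16 (TMM, filter on low counts, quasi-likelihood test) over 14520 genes with all 9 libraries and the group as the only term. CPM divide counts by the TMM-scaled library size, and log2 CPM used a prior count of 2. The 10 T cell genes and 19 other lists were chosen with earlier results of these data known. All 10 were named, from each other list mainly the 3 genes with the smallest p in a comparison, and the 10 genes most like the CD3 level; Lcp2, Rasgrp1, Bach2, Nkg7, Lyst and Hopx were named because they passed the test, and Ifng after its values were seen. The ratio of Cd4 to Cd3e was added after the data were seen. Of the list genes 10 were not analysed here. A few single-gene results are left out of the text. RefSeq names and promoters are of GRCr8, so no distances were set against Rnor_6.0.

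Alternatives were DESeq2 1.42.0, library totals or median-of-ratios factors in place of TMM, at least 10 counts in every library or no filter, edgeR on 2 groups, limma 3.58.1 on log2 FPKM (pseudocount 1 or 0.1), and leaving out each rat in turn. The scripts were tested on simulated data. Python 3.11.15 with matplotlib 3.10.9 drew the plots.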

Additional observations from a re-analysis of the deposited data

How the results depend on the processing

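Of 369 alternative values of the 27 log2 fold changes, 341 kept their direction and their side of the threshold, 25 turned in direction and 3, all of Lck, passed it; the cause was not tested. The genes called for RE/Ovx against Sham numbered 1 with library totals and 1 with DESeq2 (Lck, log2 fold change 0.85 and 0.78), and 0 to 1 when a rat was left out (Lck 0.61 to 0.97); 0 were called in the other comparisons. At the study's criteria the counts ran from 0 to 2 for NE/Ovx against Sham, 0 to 2 for RE/Ovx against NE/Ovx and 1 to 2 for RE/Ovx against Sham (Lck and Gzmb without RE/Ovx rat 5) when a rat was left out. For NE/Ovx against Sham, Cd3d was 0.029 with library totals and 0.12 and 0.27 in limma with a pseudocount of 1 and 0.1, where Cd8b was -0.038 with 0.1, and Cd3d was -0.027 between RE/Ovx and NE/Ovx rats with it. Leaving out 1 rat gave, for NE/Ovx against Sham, -0.42 to 0.68 for Cd3d, -0.26 to 0.25 for Cd3e, -0.35 to 0.40 for Cd8a, -0.47 to 0.42 for Cd8b and -0.31 to 0.23 for Zap70. For RE/Ovx against NE/Ovx it gave -0.28 to 0.53 for Cd3d, -0.68 to 0.32 for Cd3g, -0.103 to 0.032 for Cd4 and -0.26 to 0.50 for Prf1. For RE/Ovx against Sham it gave -0.31 to 0.83 for Cd3d, -0.28 to 0.66 for Cd3g and -0.029 to 0.31 for Cd4. Over all genes, DESeq2 called 658 higher and 339 lower for NE/Ovx against Sham (edgeR 149 and 29, and 7 and 2 without NE/Ovx rat 8), 4 and 1 for RE/Ovx against NE/Ovx (edgeR 0, with 767 at an unadjusted p under 0.05) and 1151 and 780 for RE/Ovx against Sham (edgeR 726 and 445, 352 and 207 on the 2 groups, 652 and 246 in limma with a pseudocount of 1, and 67 and 36 without RE/Ovx rat 8). No paired analysis was made because the groups held separate animals and no matching between them was stated. With 5 to 29 counts of Cd3d and 0 to 21 of Gzmb per rat, counting error alone is large.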
